A study of Homo sapiens with 4 samples.

Results

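The genes described here are 39 genes of glucose uptake, glycolysis, lactate handling and the response to low oxygen, taken by name from the 62443 gene identifiers measured in human EA.hy926 cells. Of these, 26 carry glucose to lactate or into the mitochondrion, and 13 sense oxygen, carry the hypoxia signal or are switched on by it. All 39 were found in the table. EA.hy926 is an established hybrid line that arose from the fusion of endothelium of the umbilical vein with lung carcinoma cells. Cells labelled miR-187 (2 libraries) were compared with cells labelled miR-NC (2 libraries), a negative control miRNA. Both groups shared the same line and no genotype or drug differed between them. In the study's methods a miRNA mimic is delivered with a lipid reagent, but none of the sources used here states the dose that these cells received. No label says that the replicates were separate cultures, so the spread behind each p-value is that of 4 libraries and can be technical.

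Glycolysis splits glucose in the cytosol into pyruvate, and lactate dehydrogenase and the monocarboxylate transporters turn pyruvate into lactate and move it across the membrane. Endothelial cells are known for drawing much of their energy from this pathway even when oxygen is present. When oxygen is scarce, prolyl hydroxylases no longer mark the α subunits of the hypoxia-inducible factors for destruction by VHL, and the stabilized factors raise many glycolytic genes together with mitophagy and collagen hydroxylase genes.

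The miRNA itself acts through a seed, the bases that pair with sites in mRNAs. The mature 3p arm from RefSeq (GRCh38.p14, chromosome 18, 35904835 to 35904856, minus strand) is shown because the members were searched for its match, with bases 2 to 8 in capitals.
hsa-miR-187-3p: uCGUGUCUuguguugcagccgg
The match to bases 2 to 8 is AGACACG, the match to bases 2 to 7 followed by A is GACACGA, and the shortest match is GACACG. Of the 38 members with a 3′ UTR in the annotation searched (GENCODE 29, 1 UTR per gene), 0 held any of these letters. Among all tested genes with such a UTR, 209 of 7017 (2.98%) held a 7-base match and another 234 (3.33%) held only the 6-base match. Over all 493 annotated transcripts of the 39 members, coding parts included, 7-base matches lay in 4 members (ARNT, EGLN3, PDK1 and PFKFB2), all of them too low here to be tested. A 6-base match lay in 11 members, those 4 included. A match is only a run of letters, and its absence from 1 annotated UTR says nothing further about the miRNA.

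Expression was given as FPKM, the fragments on a gene per length of transcript and per mapped fragments of its library. The FPKM of the 39 genes added up to 5.97% and 6.33% of the library sum with miR-187, against 6.28% and 6.25% with miR-NC. The 5 most abundant members in each library held 91.8% to 93.3% of that. GAPDH, TPI1, LDHB, LDHA and ENO1 each stood at 3521 FPKM or above in every library, whereas 9 members stayed below 1 FPKM in every library. The plot of FPKM by library shows this spread across steps. A gene was tested where 2 or more libraries reached 1 FPKM. The test was limma on log2(FPKM + 1), two-sided, with p-values adjusted by Benjamini-Hochberg across the 8196 genes tested and a threshold of 0.05. Of the 39 members 27 passed this filter, all 27 at or above 1 FPKM in every library. The 12 not tested were HK2, PFKFB2, PFKFB3, PFKFB4, ALDOC, PDK1, ARNT, EGLN1, EGLN3, CA9, ANKRD37 and NDRG1.

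**Figure D1:**
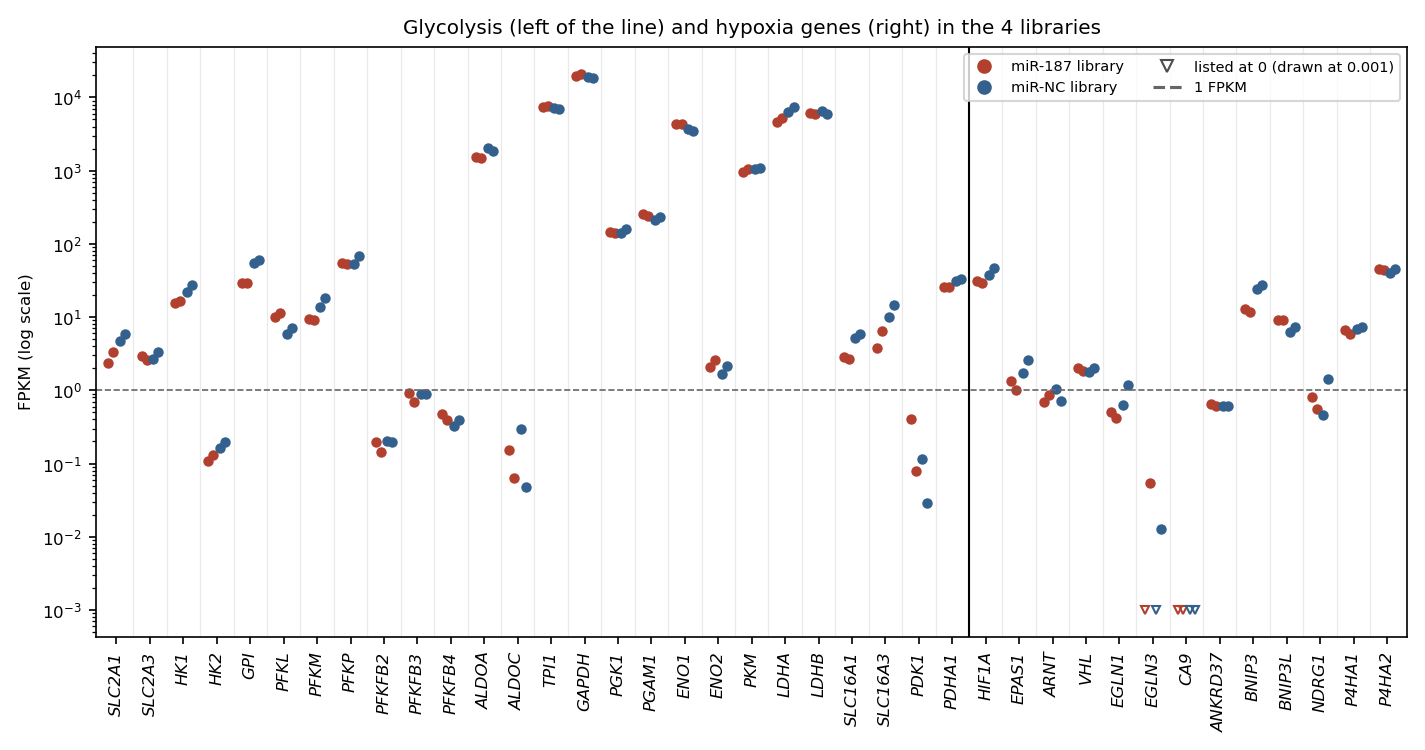
FPKM of the 39 genes on a log axis, 1 point per library, with miR-187 libraries to the left of miR-NC libraries within each gene. GAPDH reaches 21012 FPKM and CA9 is listed at 0 in all 4 libraries, and for BNIP3 both miR-187 points lie below both miR-NC points.

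The libraries differed as a whole. The median log2 difference of all tested genes was -0.39, and 85.2% lay below 0. A level of 1 FPKM was reached by 7189 to 7290 genes with miR-187 and by 8098 to 8868 genes with miR-NC, and the 100 most abundant genes held 69.8% to 70.2% of the FPKM with miR-187 and 61.7% to 64.2% with miR-NC. Differences were therefore also computed after median-of-ratios scaling, which moved that median to -0.01. Of 8 endothelial markers listed 7 were found by symbol, and PECAM1 (CD31) was not, so its level is not known here. CDH5, ESAM, TIE1, TEK and ENG were expressed and VWF and KDR reached at most 0.145 FPKM. CDH5, the junctional cadherin, read 4.45 and 3.37 FPKM with miR-187, against 9.003 and 12.3 FPKM with miR-NC, and was called lower as deposited (limma log2 difference -1.24, adjusted p = 0.00320) and after median-of-ratios scaling (-0.82, 0.0372). ESAM, a junctional adhesion molecule, read 56.1 and 55.6 FPKM with miR-187, against 104.9 and 124.4 FPKM with miR-NC, and was likewise called lower on both scales (-1.02 and -0.54, limma adjusted p = 0.000337 and 0.0288). On the second scale both calls held only without miR-187 replicate 1 (limma adjusted p otherwise 0.0640 to 0.147 for CDH5 and 0.0549 to 0.0705 for ESAM). ENG was called lower as deposited only (-0.63, limma adjusted p = 0.00728, and 0.516 after median-of-ratios scaling), a call lost without miR-187 replicate 1 (0.0800) or miR-NC replicate 2 (0.0572). TIE1 (-0.63) and TEK (-0.41) did not pass on either scale. The part of these markers in the differences of the members was not tested. Of the 5 epithelial markers KRT8 and KRT18 were abundant, with differences of 0.08 and 0.05 as deposited and 0.57 and 0.54 after median-of-ratios scaling that did not pass (KRT18 was at -0.08 after quantile normalization), and the other 3 reached at most 0.385 FPKM, and the 8 markers of cells that the culture should lack reached at most 0.115 FPKM. In a bulk culture, less RNA per cell and fewer cells that express a gene cannot be told apart.

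In the values as deposited 18 of the 27 tested members lay below 0, where 85.2% of all tested genes did. The members called lower with miR-187 lay mainly in the upper part of the pathway and at its lactate end. SLC2A1, HK1, GPI, PFKM and ALDOA fell in the upper part of the pathway, LDHA, SLC16A1 and SLC16A3 at its lactate end, and BNIP3 among the hypoxia targets. PFKL and ENO1 rose. Among these, ALDOA and LDHA lay at or above 0 after median-of-ratios scaling and ENO1 below 0 after quantile normalization. The steps between, TPI1, GAPDH, PGK1, PGAM1 and PKM, had log2 differences of -0.10 to 0.16 and did not pass. Over all 27 tested members 9 were lower (33.3%) where 27.3% of all tested genes were, and 2 were higher (7.41%) where 1.49% of all tested genes were. The share lower is thus close to that of all genes. The median of the members was -0.14, which is 0.25 above the median of all tested genes. Groups did not overlap for 14 members lower with miR-187 (51.9%, against 65.4% of all tested genes) and for 6 higher (22.2%, against 5.93%).

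After median-of-ratios scaling the picture turned towards higher levels. BNIP3 was then the 1 member called lower (3.7%, and 3.7% of all tested genes), and PFKL, PGK1, PGAM1, BNIP3L and P4HA2 were called higher (18.5%, and 4.67% of all tested genes). The median of the members was 0.29 on that scale. The fall of BNIP3 and the rise of PFKL were the 2 calls present in the values as deposited, after TPM scaling, after median-of-ratios scaling and after quantile normalization. Leaving out each library in turn, with the values as deposited, GPI, ALDOA, LDHA and BNIP3 kept their calls all 4 times.

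**Figure D2:**
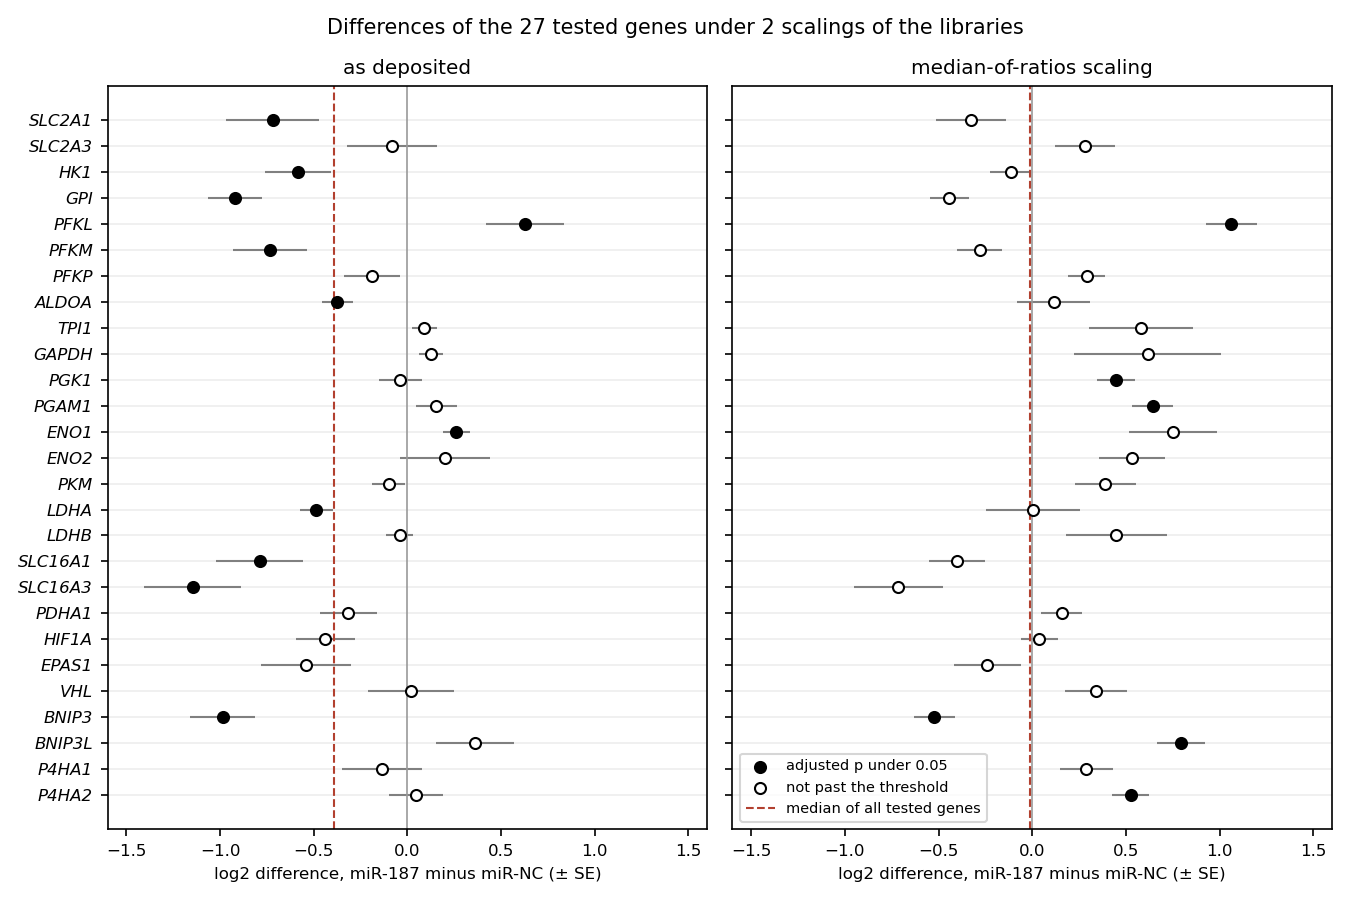
Log2 difference (miR-187 minus miR-NC, ± SE) of the 27 tested genes in the values as deposited and after median-of-ratios scaling, with filled points for an adjusted p under 0.05. BNIP3 (-0.99 and -0.52) and PFKL (0.63 and 1.06) are filled in both panels, and the dashed line marks the median of all tested genes (-0.39 and -0.01).

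Glucose enters endothelial cells mainly through the facilitative transporter encoded by SLC2A1. It read 2.39 and 3.34 FPKM with miR-187, against 4.74 and 5.95 FPKM with miR-NC. SLC2A3, a transporter of higher affinity, read 2.94 and 2.61 FPKM with miR-187, against 2.68 and 3.33 FPKM with miR-NC. The groups were apart for SLC2A1 and overlapped for SLC2A3, and SLC2A1 fell (log2 difference -0.72 ± 0.25, SE, limma adjusted p = 0.0458). SLC2A3 had a difference of -0.08, which became 0.28 after median-of-ratios scaling. Since 1 factor per library leaves a ratio within it unchanged, which quantile normalization does not, the ratio of SLC2A3 to SLC2A1 was also taken. It was 1.23 and 0.782 with miR-187, against 0.566 and 0.560 with miR-NC, without overlap. No test was run on ratios, since with 2 libraries per group the smallest p of an exact permutation test is 0.33. The call of SLC2A1 was lost without miR-187 replicate 1 (limma adjusted p = 0.375), miR-187 replicate 2 (0.148) or miR-NC replicate 2 (0.148), and after median-of-ratios scaling (0.302).

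Hexokinase traps glucose by phosphorylation. HK1, the form found in most tissues, read 15.8 and 16.5 FPKM with miR-187, against 22.0 and 27.6 FPKM with miR-NC. It fell by 0.58 on the log2 scale (SE 0.18, limma adjusted p = 0.0279). HK2, the hypoxia-inducible form, was nearly silent at 0.110 to 0.129 FPKM with miR-187 and 0.161 to 0.196 FPKM with miR-NC. HK1 made up 99.2% to 99.3% of hexokinase FPKM in all 4 libraries. The call of HK1 was lost without miR-187 replicate 1 (limma adjusted p = 0.170), miR-187 replicate 2 (0.141) or miR-NC replicate 2 (0.113), without the intensity trend in the variances (0.0619), and after median-of-ratios scaling (0.526).

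GPI, which converts glucose 6-phosphate to fructose 6-phosphate, had the most uniform values of the upper pathway. It read 29.6 FPKM in both miR-187 libraries, against 54.6 and 59.3 FPKM with miR-NC. The means were 29.6 ± 0.0291 FPKM with miR-187 and 57.0 ± 3.34 FPKM with miR-NC (SD, n = 2 each), a ratio of 0.520. It fell by 0.92 (SE 0.14, limma adjusted p = 0.000962), and the call held without each library, with adjusted p between 0.00162 and 0.0105. GPI (ENSG00000105220) lies on chromosome 19, from 34359480 to 34402413 on the plus strand (GRCh38). After median-of-ratios scaling its difference was -0.44 and just missed the threshold (limma adjusted p = 0.0539), and after quantile normalization it was -0.54 and passed (0.0254).

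Phosphofructokinase, the committing step of glycolysis, was the step where paralogs moved in opposite directions. PFKL, the liver-type subunit, read 9.99 and 11.3 FPKM with miR-187, against 5.93 and 7.14 FPKM with miR-NC. PFKM, the muscle-type subunit, read 9.36 and 9.08 FPKM with miR-187, against 13.8 and 18.4 FPKM with miR-NC. PFKP, the platelet-type subunit and the most abundant here, read 54.1 and 52.7 FPKM with miR-187, against 53.9 and 69.2 FPKM with miR-NC. PFKL was thus above PFKM in neither miR-NC library and in both miR-187 libraries. PFKL rose by 0.63 (SE 0.21, limma adjusted p = 0.0403) and PFKM fell by 0.73 (SE 0.20, limma adjusted p = 0.0179). PFKP had a difference of -0.19 and overlapping groups. Of the summed phosphofructokinase FPKM, PFKL held 13.6% and 15.4% with miR-187, against 8.06% and 7.53% with miR-NC. The share of PFKM was 12.7% and 12.4% with miR-187, against 18.8% and 19.4% with miR-NC, while PFKP held 72.2% to 73.7% and 73.0% to 73.2%. The exchange between the minor subunits shows in the plot of paralog shares.

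**Figure D3:**
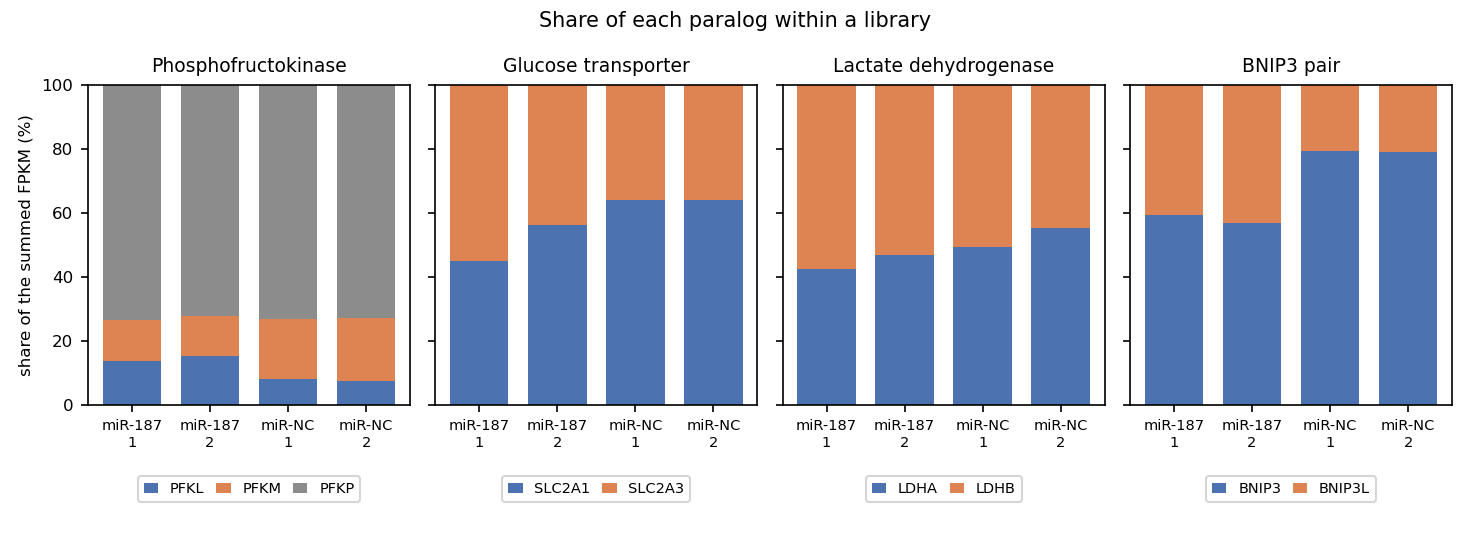
Share (%) of each paralog in the summed FPKM of its pair or trio in each library, miR-187 libraries left of miR-NC libraries. PFKL takes 13.6% and 15.4% with miR-187 against 8.06% and 7.53% with miR-NC, and BNIP3L takes a larger part of the BNIP3 pair in both miR-187 libraries.

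With median-of-ratios scaling PFKL stood at 1.06 ± 0.14 (SE, limma adjusted p = 0.0146), while PFKM stood at -0.28 and did not pass (0.184). As deposited, the call of PFKL held only without miR-NC replicate 2 (limma adjusted p = 0.0384) and was lost without miR-187 replicate 1 (0.192), miR-187 replicate 2 (0.355) or miR-NC replicate 1 (0.0577). Under median-of-ratios scaling it was lost without miR-NC replicate 1 (0.0509) or miR-NC replicate 2 (0.0700). The call of PFKM was lost without miR-187 replicate 1 (0.0946), miR-187 replicate 2 (0.133) or miR-NC replicate 2 (0.0785). The bifunctional enzymes that set fructose 2,6-bisphosphate, the activator of phosphofructokinase, were all below 1 FPKM. PFKFB3, the endothelial form best known for vessel sprouting, read 0.93 and 0.685 FPKM with miR-187, against 0.903 and 0.879 FPKM with miR-NC. PFKFB2 and PFKFB4 read 0.143 to 0.477 FPKM with miR-187 and 0.194 to 0.396 FPKM with miR-NC, and none of the 3 was tested.

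The promoters of the 2 members called under every scaling are shown with the core of the hypoxia response element in capitals. The core searched was ACGTG or GCGTG on both strands, and overlapping matches were counted separately. The sequences are from RefSeq (GRCh38.p14), from 250 bases before the annotated start to 50 bases after it, 5′ to 3′ on the strand of the gene, for BNIP3 at chr10:131981874-131982173 (minus strand) and for PFKL at chr21:44299803-44300102 (plus strand).
BNIP3: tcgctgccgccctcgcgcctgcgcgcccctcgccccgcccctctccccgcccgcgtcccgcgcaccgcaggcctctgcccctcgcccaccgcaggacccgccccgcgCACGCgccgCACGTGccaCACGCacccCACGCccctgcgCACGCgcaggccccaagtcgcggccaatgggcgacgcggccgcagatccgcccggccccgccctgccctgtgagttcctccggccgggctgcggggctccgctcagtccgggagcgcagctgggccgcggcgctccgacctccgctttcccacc
PFKL: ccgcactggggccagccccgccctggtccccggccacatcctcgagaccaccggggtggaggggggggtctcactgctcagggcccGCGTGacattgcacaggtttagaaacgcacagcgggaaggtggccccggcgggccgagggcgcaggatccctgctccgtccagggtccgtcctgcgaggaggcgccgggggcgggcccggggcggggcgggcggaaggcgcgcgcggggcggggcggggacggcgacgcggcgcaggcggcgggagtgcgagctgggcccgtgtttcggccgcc
The BNIP3 promoter holds 6 matches, with first bases between -143 and -104 relative to the start, of which a pair overlap in CACGTG. The PFKL promoter holds 1 match, at base -164. A promoter was found for 33 members, and 23 of the 33 hold a core (69.7%), against 65.0% of the promoters of tested genes and 48.4% of all promoters. LDHA had 6 matches, PGK1 had 4, and TPI1, HK1, PFKM, PFKP, PGAM1, P4HA2 and SLC16A3 were among the members with 0. A match here is a run of letters and not a bound site.

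Aldolase, which splits the six-carbon sugar, was present as ALDOA, and ALDOC reached at most 0.299 FPKM. ALDOA read 1549 and 1469 FPKM with miR-187, against 2043 and 1871 FPKM with miR-NC. The groups were apart and ALDOA fell by 0.37 (SE 0.08, limma adjusted p = 0.00703), close to the shift of all genes, and its difference was 0.11 after median-of-ratios scaling (0.741) and -0.34 after quantile normalization, where it passed (0.0488). The call held without each library (limma adjusted p between 0.00654 and 0.0412) and was lost without the intensity trend in the variances (0.137).

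The lower part of glycolysis, from TPI1 to PKM, held the most abundant member, GAPDH. In this part ENO1 was the 1 gene that passed as deposited. GAPDH, which oxidizes glyceraldehyde 3-phosphate and served the study as a reference gene for RT-qPCR, read 19821 and 21012 FPKM with miR-187, against 18757 and 18627 FPKM with miR-NC. Its log2 difference was 0.13 ± 0.06 (SE, limma adjusted p = 0.143) as deposited, 0.62 after median-of-ratios scaling and -0.17 after quantile normalization. Among the members GAPDH was highest in each library, but its direction rests on the scaling. TPI1, the triose phosphate isomerase gene, read 7485 and 7704 FPKM with miR-187, against 7260 and 6999 FPKM with miR-NC. TPI1 had a difference of 0.09, which was 0.58 after median-of-ratios scaling and -0.09 after quantile normalization.

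PGK1 and PGAM1, the kinase and the mutase of phosphoglycerate, passed or not depending on the scaling. PGK1 read 146 and 143 FPKM with miR-187, against 140 and 157 FPKM with miR-NC, and the groups overlapped. PGAM1 read 253 and 238 FPKM with miR-187, against 209 and 231 FPKM with miR-NC, and the groups were apart. Neither passed as deposited (-0.04 and 0.16, limma adjusted p = 0.817 and 0.272). Relative to the other genes of their library both were higher, with 0.45 for PGK1 (limma adjusted p = 0.0484) and 0.64 for PGAM1 (0.0257) after median-of-ratios scaling. On that scale PGK1 was lost without miR-187 replicate 1 (0.101), miR-187 replicate 2 (0.148), miR-NC replicate 1 (0.0646) or miR-NC replicate 2 (0.117). PGAM1 was lost there without miR-187 replicate 2 (0.0689) or miR-NC replicate 2 (0.0653).

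Enolase makes phosphoenolpyruvate, and pyruvate kinase ends the pathway. ENO1, the ubiquitous enolase, read 4344 and 4359 FPKM with miR-187, against 3738 and 3521 FPKM with miR-NC. ENO1 rose by 0.26 (SE 0.07, limma adjusted p = 0.0203), and its difference was 0.75 after median-of-ratios scaling (0.0956) and -0.05 after quantile normalization (0.627). The call held only without miR-NC replicate 1 (limma adjusted p = 0.0199) and was lost without miR-187 replicate 1 (0.0702), miR-187 replicate 2 (0.0939) or miR-NC replicate 2 (0.111), and without the intensity trend (0.259). ENO2, the neuronal enolase that hypoxia also raises, was low at 2.11 and 2.58 FPKM with miR-187, against 1.66 and 2.17 FPKM with miR-NC. The ratio of ENO2 to ENO1 overlapped between the groups. PKM read 957 and 1062 FPKM with miR-187, against 1069 and 1089 FPKM with miR-NC, a difference of -0.10 that did not pass (limma adjusted p = 0.394) and was 0.39 after median-of-ratios scaling.

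At the lactate end the A and B subunits of lactate dehydrogenase parted. LDHA, the muscle-type subunit that is a hypoxia target, read 4547 and 5168 FPKM with miR-187, against 6266 and 7351 FPKM with miR-NC. LDHB, the heart-type subunit, read 6183 and 5906 FPKM with miR-187, against 6465 and 5976 FPKM with miR-NC. Both miR-187 libraries were below both miR-NC libraries for LDHA, and the groups overlapped for LDHB. LDHA fell by 0.49 (SE 0.09, limma adjusted p = 0.00282), while LDHB had a difference of -0.04 (0.681). The call of LDHA held without each library (limma adjusted p at most 0.0440) but not after median-of-ratios scaling, where the difference was 0.00 (0.994), nor after quantile normalization, where it was -0.65 (0.0565), nor without the intensity trend (0.0923). Within a library the ratio of LDHA to LDHB was 0.735 and 0.875 with miR-187, against 0.969 and 1.23 with miR-NC. The mean ratio with miR-187 was 0.732 times that with miR-NC, and the groups did not overlap. The ratio passed 1 in miR-NC replicate 2 and in no other library.

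Reads of LDHA can be shared with its processed pseudogenes. LDHAP4 read 0.366 and 22.2 FPKM with miR-187, against 28.5 and 27.7 FPKM with miR-NC. The sum over the 6 LDHA pseudogenes was at most 0.486% of LDHA in every library. For TPI1 that share was 1.16% to 1.36%, and for GAPDH with its 65 pseudogenes 0.0980% to 0.103%. For BNIP3 with its 44 pseudogenes it was 0.832% to 3.93%. The largest shares were 4.11% for SLC2A3 in miR-187 replicate 2 and 9.13% for the untested HK2 in miR-187 replicate 1. Of 158 pseudogenes carrying a member's symbol 9 reached 1 FPKM in a library. Adding them to their parent genes changed no call among the 27 tested members.

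The lactate transporters were low and fell together. SLC16A3, which encodes the MCT4 exporter of glycolytic cells and is raised by hypoxia, read 3.77 and 6.42 FPKM with miR-187, against 10.2 and 14.5 FPKM with miR-NC. SLC16A1, which encodes the MCT1 transporter, read 2.84 and 2.67 FPKM with miR-187, against 5.14 and 5.85 FPKM with miR-NC. Neither gene overlapped between the groups. SLC16A3 fell by 1.15 (SE 0.26, limma adjusted p = 0.00737), with the lowest ratio of means among the tested members (0.413). SLC16A1 fell by 0.79 (SE 0.23, limma adjusted p = 0.0260), with a ratio of 0.501. The ratio of SLC16A3 to SLC16A1 overlapped between the groups. Both kept their sign after median-of-ratios scaling (-0.71 and -0.40) without passing (0.110 and 0.142). The call of SLC16A3 was lost without miR-187 replicate 1 (limma adjusted p = 0.0910) or miR-NC replicate 2 (0.0650), and that of SLC16A1 without miR-187 replicate 1 (0.169), miR-187 replicate 2 (0.233) or miR-NC replicate 2 (0.0692).

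Pyruvate dehydrogenase converts pyruvate to acetyl-CoA inside the mitochondrion. PDHA1, its E1α subunit, read 25.9 and 25.6 FPKM with miR-187, against 31.1 and 33.5 FPKM with miR-NC. The groups were apart, but the difference of -0.32 did not pass (limma adjusted p = 0.128) and was 0.16 after median-of-ratios scaling. PDK1, the kinase that shuts the complex in hypoxia, was listed at 0.4 and 0.0799 FPKM with miR-187, against 0.116 and 0.0286 FPKM with miR-NC, too low to be tested.

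Among the oxygen sensors and hypoxia-inducible factors no member passed in the values as deposited. HIF1A, the α subunit that drives most glycolytic targets, read 31.4 and 29.2 FPKM with miR-187, against 37.1 and 46.1 FPKM with miR-NC. EPAS1, the endothelial HIF-2α gene, read 1.32 and 1.01 FPKM with miR-187, against 1.73 and 2.61 FPKM with miR-NC. Both had miR-187 libraries below miR-NC libraries. HIF1A had a difference of -0.44 ± 0.16 (SE, limma adjusted p = 0.0524), and EPAS1 of -0.54 ± 0.24 (0.102). HIF1A passed without miR-NC replicate 1 (limma adjusted p = 0.0163) and after TPM scaling (0.0347), while after median-of-ratios scaling its difference was 0.04. Where 1 FPKM was asked of all 4 libraries, fewer genes were tested and both passed (0.0318 for HIF1A and 0.0485 for EPAS1). The ratio of EPAS1 to HIF1A was 0.0420 and 0.0344 with miR-187, against 0.0466 and 0.0565 with miR-NC.

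The remaining sensors were low. VHL, which tags the α subunits for destruction, read 2.05 and 1.81 FPKM with miR-187, against 1.78 and 1.99 FPKM with miR-NC, with overlapping groups and a difference of 0.02. ARNT, the shared β subunit, read 0.686 and 0.873 FPKM with miR-187, against 1.06 and 0.719 FPKM with miR-NC. EGLN1, the main oxygen-sensing prolyl hydroxylase, read 0.498 and 0.413 FPKM with miR-187, against 0.629 and 1.17 FPKM with miR-NC. EGLN1 was lower in both miR-187 libraries than in both miR-NC libraries, whereas ARNT overlapped. The inducible hydroxylase gene EGLN3 was listed at 0 in miR-187 replicate 1 and miR-NC replicate 1 and reached at most 0.0537 FPKM in the others. None of ARNT, EGLN1 and EGLN3 was tested.

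Among the hypoxia targets the mitophagy receptors BNIP3 and BNIP3L differed in direction. BNIP3 (ENSG00000176171, chromosome 10, 131966455 to 131982013 on the minus strand, GRCh38) read 13.1 and 11.9 FPKM with miR-187, against 23.9 and 27.7 FPKM with miR-NC. BNIP3L, also called NIX, read 8.99 and 9.05 FPKM with miR-187, against 6.29 and 7.34 FPKM with miR-NC. In both genes the groups were apart. BNIP3 averaged 12.5 ± 0.850 FPKM with miR-187 and 25.8 ± 2.72 FPKM with miR-NC (SD, n = 2 each), a ratio of 0.485. It fell by 0.99 (SE 0.17, limma adjusted p = 0.00213), and by 0.52 after median-of-ratios scaling (SE 0.11, limma adjusted p = 0.0410). BNIP3L had a difference of 0.36 ± 0.21 (SE, limma adjusted p = 0.192) as deposited and of 0.79 ± 0.13 (0.0230) after median-of-ratios scaling. The ratio of BNIP3L to BNIP3 was 0.686 and 0.761 with miR-187, against 0.264 and 0.265 with miR-NC, so the mean ratio was 2.74 times higher with miR-187. Of the 8 pairs of paralogs compared this way it was the largest shift.

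As deposited the call of BNIP3 held without each library (limma adjusted p between 0.00360 and 0.0178). Under median-of-ratios scaling it held without miR-187 replicate 1 (0.0258) and was lost without miR-187 replicate 2 (0.0954), miR-NC replicate 1 (0.110) or miR-NC replicate 2 (0.114). On that scale BNIP3L was lost without miR-NC replicate 1 (0.0708) or miR-NC replicate 2 (0.0977). With 1 library left in a group, that library is assumed to vary like those of the other group.

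The collagen prolyl 4-hydroxylases, which hypoxia also raises, did not pass in the values as deposited. P4HA2 read 45.2 and 43.8 FPKM with miR-187, against 40.3 and 46.0 FPKM with miR-NC. P4HA1 read 6.67 and 5.93 FPKM with miR-187, against 6.81 and 7.22 FPKM with miR-NC. Their differences were 0.05 for P4HA2 and -0.14 for P4HA1, with overlapping groups for P4HA2 only. After median-of-ratios scaling P4HA2 was called higher (0.52, limma adjusted p = 0.0322), a call lost without miR-187 replicate 2 (0.0622), miR-NC replicate 1 (0.0723) or miR-NC replicate 2 (0.112). The carbonic anhydrase gene CA9, a sensitive marker of hypoxia, was listed at 0 in all 4 libraries. ANKRD37 read 0.603 to 0.649 FPKM throughout, and NDRG1 read 0.815 and 0.552 FPKM with miR-187, against 0.456 and 1.43 FPKM with miR-NC, with overlapping groups and a wide spread between the miR-NC libraries.

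To place the members among related genes, lists of neighbouring pathways were counted in the same way. Of 27 tested genes on a further list of hypoxia-induced genes 9 were called lower (33.3%, against 27.3% of all tested genes) and 1 higher (3.70%, against 1.49%). After median-of-ratios scaling 1 was lower and 3 were higher, where 3.7% and 4.67% of all tested genes were. Of these 27 genes 3 reached 1 FPKM in miR-NC libraries only, 2 of them among the calls. The hydroxylase gene JMJD6 read 4.38 and 3.78 FPKM with miR-187, against 9.98 and 10.02 FPKM with miR-NC, and was called lower in the values as deposited and after median-of-ratios scaling (-1.12 and -0.70, limma adjusted p = 0.00351 and 0.0451). FAM162A (-1.14) and ANGPTL4 (-0.47) were also called lower, and ANGPTL4 had a difference of 0.02 after median-of-ratios scaling. The call of JMJD6 was lost without miR-187 replicate 2 (limma adjusted p = 0.0568), and that of FAM162A without miR-187 replicate 1 (0.0918) or miR-NC replicate 2 (0.0680). With a library left out under median-of-ratios scaling, JMJD6 passed only without miR-187 replicate 1 (limma adjusted p = 0.0139), against 0.0835 to 0.145 when any of the other 3 was omitted. On a list of regulators of the hypoxia-inducible factors 3 of 7 tested genes fell (42.9%, against 27.3% of all tested genes). They were ELOB, ELOC and RBX1, partners of VHL in its ubiquitin ligase. The 1 gene that rose (14.3%, against 1.49%) was P4HB. It encodes the disulfide isomerase subunit of collagen prolyl 4-hydroxylase and is not itself such a regulator. After median-of-ratios scaling 0 of the 7 tested genes were lower and 1 higher, where 3.7% and 4.67% of all tested genes were. ELOB, RBX1 and ELOC had differences of 0.01, 0.13 and -0.11 on that scale. P4HB was the gene called higher there (0.85, limma adjusted p = 0.0139), with differences of 0.74 to 0.88 when each library was left out. As deposited, the call of ELOB held without each library, those of ELOC and RBX1 held only without miR-NC replicate 1 (limma adjusted p otherwise 0.0865 to 0.238), and that of P4HB was lost without any of the 4 libraries (0.0506 to 0.220).

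Of 8 tested genes listed as further glycolytic isoenzymes 2 were called lower (25%, against 27.3% of all tested genes) and 1 higher (12.5%, against 1.49%). After median-of-ratios scaling 0 were lower and 1 higher, where 3.7% and 4.67% of all tested genes were. The muscle enolase gene ENO3 read 7.12 and 8.25 FPKM with miR-187, against 13.3 and 21.6 FPKM with miR-NC (limma log2 difference -1.06, adjusted p = 0.00640). BPGM, which makes 2,3-bisphosphoglycerate, read 50.7 and 49.8 FPKM with miR-187, against 35.4 and 39.5 FPKM with miR-NC and was called higher before and after median-of-ratios scaling (0.42 and 0.90, limma adjusted p = 0.0428 and 0.0104). The other gene called lower, PGAM5, is a mitochondrial protein phosphatase rather than a glycolytic mutase. It read 0.654 and 0.791 FPKM with miR-187, against 1.69 and 1.85 FPKM with miR-NC, so it entered the test through the miR-NC libraries alone and its call carries no weight. ENO3 did not pass after median-of-ratios scaling (limma adjusted p = 0.0794). As deposited, BPGM held only without miR-NC replicate 2 (limma adjusted p = 0.0478), with 0.0783 to 0.235 when any of the other 3 was omitted, and after median-of-ratios scaling it was lost without that same library (0.0546).

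The pathways that branch from glycolysis or take up pyruvate held only lower calls in the values as deposited, where 27.3% of all tested genes were lower. After median-of-ratios scaling they held calls both ways, where 3.7% of all tested genes were lower and 4.67% higher. On a list of the tricarboxylic acid cycle and linked enzymes 12 of 22 tested genes fell (54.5%) and 0 rose as deposited. After median-of-ratios scaling 2 were lower and 2 higher. The list also holds cytosolic forms and aminotransferases that are not steps of the cycle, and some of these are among the 12. SDHC, a membrane anchor of succinate dehydrogenase, read 16.3 FPKM in both miR-187 libraries, against 37.4 and 43.7 FPKM with miR-NC, and FH, the fumarase gene, read 5.91 and 6.25 FPKM with miR-187, against 13.4 and 15.4 FPKM with miR-NC. Both were called lower in either scaling (limma adjusted p = 0.0146 for SDHC and 0.0319 for FH after median-of-ratios scaling). In the hexosamine and glycogen list 5 of 10 were called lower (50%) and 0 higher, and 2 and 0 after median-of-ratios scaling. GFPT1, the first enzyme of the hexosamine branch, read 0.174 and 0.148 FPKM with miR-187, against 1.20 and 1.22 FPKM with miR-NC. It entered the test through the miR-NC libraries alone, so its place in both of these counts carries no weight. Its paralog GFPT2 read 5.50 and 5.69 FPKM with miR-187, against 11.8 and 14.3 FPKM with miR-NC. GFPT2 passed in both scalings. Under median-of-ratios scaling SDHC was lost without miR-NC replicate 2 (limma adjusted p = 0.0619), and FH and GFPT2 when either miR-NC library was omitted (0.0970 and 0.103 for FH, 0.0944 and 0.122 for GFPT2). In the pentose phosphate pathway 1 of 9 fell (PGD, 11.1%), and among genes of pyruvate entry and use 2 of 9 (PDHB and MPC2, 22.2%). On a list of serine synthesis and use 2 of 6 fell (SHMT2 and MTHFD2, 33.3%), with 0 higher in each list as deposited. SHMT2 and MTHFD2 are folate-linked enzymes that act after serine is made. PHGDH and PSAT1, of serine synthesis itself, did not pass (limma adjusted p = 0.0621 and 0.161). The calls of MPC2 and MTHFD2 held only without miR-NC replicate 1 (limma adjusted p otherwise 0.0924 to 0.310). Of the 5 genes PGD, PDHB, MPC2, SHMT2 and MTHFD2, 0 passed after median-of-ratios scaling. On that scale the pentose phosphate list had 0 lower and 2 higher, PRPS1 (0.74, limma adjusted p = 0.0230) and TKT (0.73, 0.0296), the transketolase gene, which is named because it passed. PRPS1 was lost there without miR-NC replicate 2 (0.0786) and TKT without either miR-NC library (limma adjusted p up to 0.102).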

How the data were processed

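The 4 mRNA libraries were grouped by their sample titles. The authors deposited 1 FPKM value per gene and library, and per the labels HISAT2, StringTie, DESeq2 and the build hg19 were used, with no versions given. Fragment totals were not used here, so depth is unknown and no counting interval is given. FPKM of a gene falls when other transcripts take a larger share of a library, and StringTie can divide reads between near-identical copies. Symbols were matched for 58611 of 62443 identifiers, after 49 copies on the Y pseudoautosomal region were left out. Genes that reached 1 FPKM in 2 or more libraries were tested as log2(FPKM + 1), whose pseudocount understates the change of low genes, with limma 3.58.1 in R 4.3.3 and an intensity trend in the variances. The fit had 2 residual and 10.9 prior degrees of freedom. On simulated data the step called 36 of 100 genes changed 2-fold and 82 of 100 changed 4-fold. The changed genes were drawn only from those with a mean log2(FPKM + 1) above 2, and no shift of whole libraries was simulated. These rates therefore do not cover lower genes. Alternatives were other scalings (median-of-ratios, TPM, quantile), a pseudocount of 0.1, other filters, no trend, a replicate block, pseudogenes added to their parents and each library left out. Median-of-ratios scaling with each library left out, leaving out libraries for the genes named from the further lists, and the alternatives for the markers and TKT, were added after seeing the data. Promoters and the miRNA came from RefSeq, UTRs and gene positions from GENCODE 29. Sequences were searched in Python 3.11.15 (pandas 2.3.3) and plotted values drawn with matplotlib 3.10.9. The members and lists were chosen with earlier results of these data known. All members are named, and up to 4 tested genes per further list with the smallest adjusted p were eligible to be named. A gene of the further lists that met this rule is not reported here.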

Additional observations from a re-analysis of the deposited data

How the results depend on the processing

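The scaling of the libraries changed the direction of some members, and median-of-ratios scaling ended most of their calls. With median-of-ratios scaling 303 genes were lower and 383 higher, among the members 1 and 5, with a member median of 0.29. With quantile normalization 319 genes were lower and 293 higher, among the members 3 and 4. With no filter on low FPKM, limma called 0 genes lower and 0 higher, 0 and 0 among the members, while 4189 of 25001 genes had an unadjusted p under 0.05. Without the intensity trend 48 genes and 1 member were higher. With each library left out, 822 to 2719 genes were lower and 72 to 119 higher, and 4 to 10 members were lower and 0 to 1 higher. After median-of-ratios scaling these genes changed sign: SLC2A3 (0.282), PFKP (0.291), ALDOA (0.115), PGK1 (0.449), PKM (0.391), LDHA (0.00400), LDHB (0.449), PDHA1 (0.157), HIF1A (0.0374), P4HA1 (0.289), ANGPTL4 (0.0223), ELOB (0.0131), RBX1 (0.133), PGLS (0.184), PDHX (0.0824), PHGDH (0.0464) and PSAT1 (0.0509). After quantile normalization these did: SLC2A3 (0.327), PFKP (0.134), TPI1 (-0.0896), GAPDH (-0.169), PGK1 (0.231), ENO1 (-0.0532), PKM (0.0154), PDHA1 (0.0836), P4HA1 (0.334), PGLS (0.0579), PDHX (0.0406), PSAT1 (0.0934) and KRT18 (-0.0818). VHL stood at -0.0022 with TPM. With a library left out, SLC2A3 ran over -0.200 (without miR-NC replicate 1) to 0.0359 (without miR-NC replicate 2), PGK1 ran over -0.12 (without miR-NC replicate 1) to 0.0456 (without miR-NC replicate 2), LDHB ran over -0.0974 (without miR-NC replicate 2) to 0.0161 (without miR-NC replicate 1), VHL ran over -0.0369 (without miR-187 replicate 1) to 0.0776 (without miR-187 replicate 2) and P4HA2 ran over -0.047 (without miR-NC replicate 1) to 0.14 (without miR-NC replicate 2). The cause was not tested. With a replicate block 2491 genes were lower and 142 higher, and 10 members lower and 2 higher, HIF1A being the call gained (limma adjusted p = 0.0484). Same-numbered libraries did not deviate together (correlation of their deviations -0.06), so the numbers were not taken to pair them. The absent depth leaves the 12 untested members, at or near 1 FPKM or below, undecided.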
